A study of Mus musculus with 145 samples.

Results

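The genes described here are 9 members of the circuit that holds mouse pluripotent cells in the naive state: *Klf2*, *Klf4*, *Klf5*, *Esrrb*, *Tfcp2l1*, *Zfp42* (*Rex1*), *Tbx3*, *Nr5a2* and *Tcl1*. They were taken by name from the 24615 genes of the single-cell expression table, and all 9 passed the filter on low counts in every comparison. Their values were read by the deposited cluster of each cell, as unique molecular identifiers (UMIs, which count each captured mRNA molecule once) summed over the cells of 1 cluster in 1 library, where the library held at least 5 such cells, and are given as CPM, the UMIs of the gene scaled to all UMIs of that sum.

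The cells came from the conversion of spermatogonial stem cells (SSCs), the unipotent stem cells of the testis, into germline-derived pluripotent stem cells (gPSCs). The SSCs were cultured from neonatal males of a cross of C57BL/6 females carrying an *Oct4*-EGFP reporter with DBA (strain DBA/2) males, and were grown on mouse embryonic fibroblast feeders with EGF, bFGF, GDNF and ESGRO (leukaemia inhibitory factor, LIF). In the original condition, with no added chemical, 46 libraries were made by modified STRT-seq on days 0 to 27, and 1 library each came from the line gPSC-1 at passage 1, the same line at passage 15 and an embryonic stem cell (ESC) line, all grown in N2B27 with 2iL, that is 2 kinase inhibitors and LIF. In a further experiment by scTrio-seq2, which reads RNA and DNA methylation from the same cell, RNA was measured in 8 samples under 5C (a mixture of TUDCA, daphnetin, EGCG, vitamin C and SGC707) and in 5 samples under the solvent DMSO. The authors sorted the cells of the original condition into clusters, of which SSC1 to SSC4 and RPG1 to RPG4 form the route to pluripotency and the Fibroblast, Meiotic, Neural and Early-pluripotency clusters lie off it, and assigned the scTrio-seq2 cells to the same classes. Every cell was picked by mouth pipette from an SSC-like or PSC-like colony, and nothing in the labels says that replicate libraries came from separate cultures or animals, so p-values measure the spread between libraries, which may be technical.

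Naive pluripotency is the ground state of the preimplantation epiblast and of ESCs grown with LIF and 2i. LIF acts through STAT3 on *Klf4* and *Tfcp2l1*, inhibition of GSK3 releases *Esrrb* and *Tfcp2l1* from repression by *Tcf7l1*, and inhibition of MEK sustains *Klf2*, so these factors collect the signals of the medium and hold *Pou5f1*, *Sox2* and *Nanog* in place. *Klf2*, *Klf4* and *Klf5* are zinc finger factors that bind the same CACCC sequence and replace each other in part. *Esrrb* and *Nr5a2* are orphan nuclear receptors, *Tfcp2l1* is a grainyhead-type factor, *Tbx3* a T-box factor, *Zfp42* a zinc finger protein used as a marker of the naive state, and *Tcl1* is not a DNA-binding factor but a coactivator of the kinase Akt. Several of these genes, among them *Tcl1* and *Zfp42*, are also known from germ cells.

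The sequences just upstream of the start sites of *Zfp42* and *Esrrb* are shown because these 2 genes carry, in their first 250 upstream bases, letters of the factors that the results are about. They are the RefSeq promoter entries on GRCm38.p6, 5′ to 3′ on the strand of the gene, and end at the base before the start site.
Zfp42: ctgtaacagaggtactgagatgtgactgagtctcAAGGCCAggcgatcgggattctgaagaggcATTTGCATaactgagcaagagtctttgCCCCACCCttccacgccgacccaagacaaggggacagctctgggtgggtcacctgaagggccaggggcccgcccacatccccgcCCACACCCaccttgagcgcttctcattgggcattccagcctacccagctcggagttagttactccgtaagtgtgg
Esrrb: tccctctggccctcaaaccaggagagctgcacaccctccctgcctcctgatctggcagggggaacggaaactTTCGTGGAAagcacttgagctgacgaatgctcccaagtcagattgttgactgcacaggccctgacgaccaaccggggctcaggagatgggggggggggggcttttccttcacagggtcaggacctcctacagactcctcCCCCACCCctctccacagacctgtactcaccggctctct
Capitals mark matches to motifs searched on both strands. The *Zfp42* sequence (chr8:43307010-43307259, minus strand) held the octamer ATTTGCAT bound by *Pou5f1* at -186 from the start site, the Klf letters CCNCACCC at -159 and -75, and the *Nr5a2* half-site AAGGCCA at -216. The *Esrrb* sequence (chr12:86360867-86361116, plus strand) held the STAT letters TTCNNNGAA at -178 and the Klf letters at -39. Of 32851 promoter entries of the same length, 1.6% held the octamer, 14.9% the Klf letters, 7.02% the STAT letters, 5.24% the *Nr5a2* half-site and 4.08% the *Esrrb* half-site AAGGTCA, which was found in 0 entries of the 9 genes. These are matches of letters, and binding was not measured. There were 9 entries for 7 of the 9 genes, not for *Klf5* and *Tbx3*. The Klf letters were also found in the entry of *Tcl1*, at -85, and at the other start sites of *Esrrb*, at -105, and of *Nr5a2*, at -163, whereas the entries of *Klf2*, *Klf4* and *Tfcp2l1* and the upstream one of *Nr5a2* held 0 matches to the letters searched. In GENCODE on GRCm38 the genes lie at chr8:72319033-72321656 (*Klf2*), chr4:55527143-55532466 (*Klf4*), chr14:99298691-99315036 (*Klf5*), chr12:86361117-86521628 (*Esrrb*), chr1:118627945-118685168 (*Tfcp2l1*), chr8:43295063-43306980 (*Zfp42*), chr5:119670669-119684724 (*Tbx3*), chr1:136842571-136960448 (*Nr5a2*) and chr12:105216750-105222793 (*Tcl1*).

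Libraries of the original condition held 15975410 to 34609591 UMIs, and the sums that entered the comparisons 433094 to 34168335 UMIs in SSC1-4 (clusters SSC1 to SSC4 pooled, 36 libraries), 7179664 to 15777564 in RPG1 (7 libraries), 3534500 to 6415415 in RPG2 (3 libraries), 1570976 to 17474953 in RPG3 (8 libraries) and 2518163 to 4966558 in RPG4 (2 libraries). Markers were checked against the cluster names. The 6 SSC markers summed to 1466 to 2383 CPM in SSC1-4 and 300 to 552 CPM in RPG3, and 4 pluripotency markers to 21.3 to 235 CPM in SSC1-4 and 1148 to 1313 CPM in RPG3. Among the SSC markers *Etv5*, a GDNF target, went the other way and was higher in RPG3 (1.94 ± 0.25 on the log2 scale, adjusted p = 9.4e-11, edgeR). The 4 meiotic markers summed to 98.9 to 184 CPM in the Meiotic class, inside the SSC1-4 range of 16.6 to 203 CPM, and the pluripotency markers to 53.2 to 173 CPM in the Early-pluripotent class, also inside the SSC1-4 range. These 2 classes are therefore called by their deposited names only. All RPG2 libraries belonged to batch B2 and both RPG4 libraries to batch B1, so for these classes batch and class cannot be told apart without a model term. The RPG3 sum of day 12 replicate 2 (7 cells, batch B2) stood apart from the other 7 RPG3 libraries, which came from days 18 to 23. The clusters were built on the expression of these same cells, so the tests that follow measure how firmly a gene separates the classes across libraries and are not independent evidence for the classes.

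Of the 9 genes, 8 were higher in RPG2 than in SSC1-4 and the same 8 in RPG3, whereas 0 were called in RPG1. In RPG4, 8 of 9 were lower than in RPG3, while against SSC1-4 6 of 9 were lower and 2, *Klf2* and *Klf5*, were higher. Genes were tested with edgeR's quasi-likelihood test with Benjamini-Hochberg adjustment over 20030 genes and called at an adjusted p below 0.05. In RPG1 against SSC1-4, 4.61% of all genes were called, 0 of the 9, and DESeq2 also called 0. An unadjusted p under 0.05 was found for 3 of the 9 (*Klf2*, *Tbx3* and *Tcl1*) and for 3804 of all 20030 genes. In RPG2 against SSC1-4, 17.5% of all genes were called higher and the median log2 fold change of the 9 was 3.22, against -0.52 over all genes tested. In RPG3 against SSC1-4, 25.2% of all genes were called higher and 31.5% lower, and the medians were 2.08 and -0.25. In RPG2 against RPG1, where 12.8% of all genes were called higher, the same 8 genes were called higher and *Tcl1* lower (14.7% of all genes lower). Between RPG3 and RPG2, 5.98% of all genes (2.85% higher) and 0 of the 9 were called, and DESeq2 called 0 of the 9. Here 5 of the 9 and 4023 of all 20030 genes had an unadjusted p under 0.05. In RPG4 against SSC1-4, 15.1% of all genes were called lower and 12.6% higher, and in RPG4 against RPG3, 8.93% of all genes were called, 4.99% lower, with medians of -4.54 for the 9 genes and -0.27 for all. RPG4 had only 2 libraries. Leaving out 1 of them here and in the results that follow leaves a lone library, which is assumed to vary like those of the other classes. A call lost then can come from the smaller number of libraries. Without day 20 replicate 2 the genes called fell from 8 to 5 against RPG3 and, both directions counted, from 8 to 4 against SSC1-4, and without replicate 1 to 6 and 5.

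**Figure D1:**
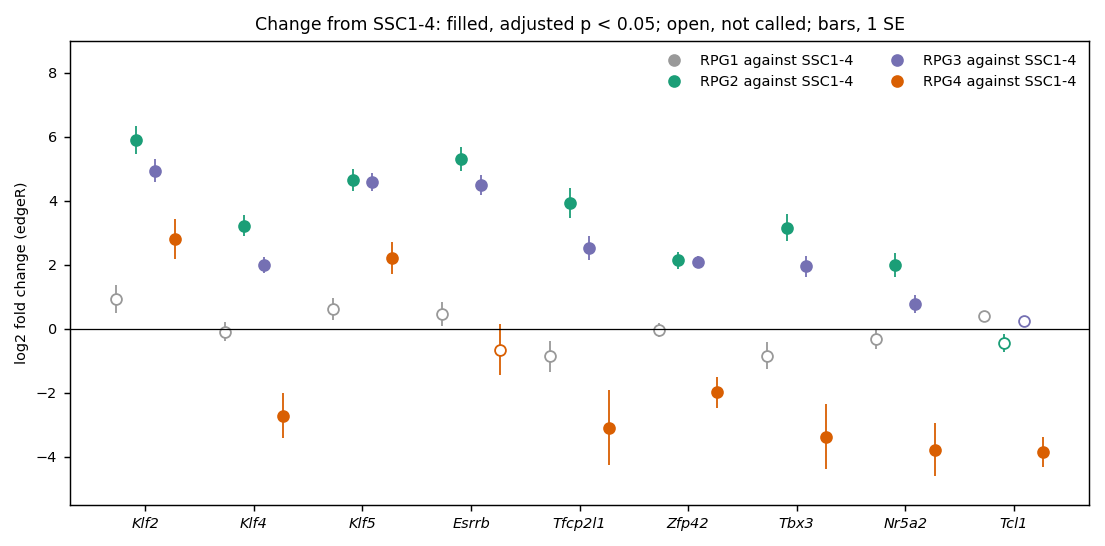
Log2 fold change with its standard error (bars) of the 9 genes in RPG1, RPG2, RPG3 and RPG4, each against SSC1-4, from edgeR's quasi-likelihood fit. Called genes are set apart from those that were not called. In RPG2 against SSC1-4 8 genes lie above 0 and in RPG3 against SSC1-4 all 9, of which 8 were called in each. In RPG4 against SSC1-4 2 genes were called higher and 6 lower.

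Of the Klf factors, *Klf2* had the largest fold changes in RPG2 and RPG3 of the original condition, whereas within 5C *Klf5* had. Differences between genes were not tested. In SSC1-4 its level ran from 0 through a median of 3.34 to 19 CPM, with 4 of 36 libraries at 0, and in RPG1 from 2.53 to 17.5 CPM with a mean of 8.94 ± 5.05 (SD, n = 7). The 3 RPG2 libraries read 227 CPM on day 12 (8 cells), 169 CPM in day 14 replicate 5 (15 cells) and 353 CPM in day 14 replicate 6 (21 cells), all above every SSC1-4 library. The log2 fold change was 5.91 ± 0.44 (SE, adjusted p = 1.8e-20). In RPG3, *Klf2* ran from 37.6 through 124 to 224 CPM, again above every SSC1-4 library (4.94 ± 0.37, adjusted p = 2.3e-21), and the lowest value belonged to the day 12 library. The 2 RPG4 libraries, both of day 20, read 26.2 CPM in replicate 1 (8 cells) and 40.7 CPM in replicate 2 (13 cells), still above every SSC1-4 library (2.80 ± 0.63, adjusted p = 0.000253). Without replicate 2 that last call was lost (adjusted p = 0.0555). Against RPG3, *Klf2* in RPG4 was not called (-2.14 ± 1.01, adjusted p = 0.186), but it was when only these 2 classes entered the fit (-2.02, adjusted p = 0.0172), and, in an alternative chosen after seeing the data, when only the 2 libraries holding both classes were compared (-2.31, adjusted p = 0.00452).

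*Klf4*, the LIF and STAT3 target among the Klf factors, ran from 4.62 through 17.2 to 36 CPM in SSC1-4 and had a mean of 17.5 ± 9.84 CPM (SD, n = 7) in RPG1. In RPG2 it read 171, 134 and 157 CPM, in the order of libraries given for *Klf2*, with no overlap with SSC1-4 (3.22 ± 0.32, adjusted p = 2.8e-14). In RPG3 it read 230 CPM in the day 12 library and 36.4 to 48.5 CPM in the other 7, so that 1 library of 7 cells set the mean of 64.4 ± 67.0 CPM. RPG3 exceeded SSC1-4 with that library (1.98 ± 0.25, adjusted p = 1.0e-10) and without it (1.37, adjusted p = 2.5e-06). When only the 2 libraries holding both RPG3 and SSC1-4 sums were compared, also chosen after seeing the data, it was 0.88 (adjusted p = 0.259). In RPG4 *Klf4* read 0.397 and 4.83 CPM, below every RPG3 library (-4.69 ± 0.82, adjusted p = 2.3e-05) and below the SSC level (-2.71 ± 0.71, adjusted p = 0.00201). Replicate 2 lay within the SSC1-4 range, and without replicate 1 the call against SSC1-4 was lost.

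*Klf5*, which like *Klf2* and *Klf4* supports self-renewal of ESCs, ran from 0 through 10.2 to 49.8 CPM in SSC1-4 and had a mean of 17.7 ± 6.41 CPM (SD, n = 7) in RPG1. RPG2 read 337, 108 and 340 CPM and RPG3 161 through 240 to 326 CPM, and no library of either class overlapped SSC1-4. The log2 fold changes over SSC1-4 were 4.65 ± 0.35 (adjusted p = 4.9e-20) in RPG2 and 4.59 ± 0.28 (adjusted p = 3.1e-26) in RPG3, and RPG3 against RPG2 gave -0.06 with adjusted p = 1. In RPG4 *Klf5* read 42.9 and 66.2 CPM, of which the second lay above every SSC1-4 library (2.21 ± 0.51, adjusted p = 0.000357), but without that library the call was lost (adjusted p = 0.0736). The fall from RPG3 was called in the full set (-2.38 ± 0.80, adjusted p = 0.0436), and was lost under DESeq2 size factors (adjusted p = 0.0600), with no filter on low counts (adjusted p = 0.0523) and without either RPG4 library.

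**Figure D2:**
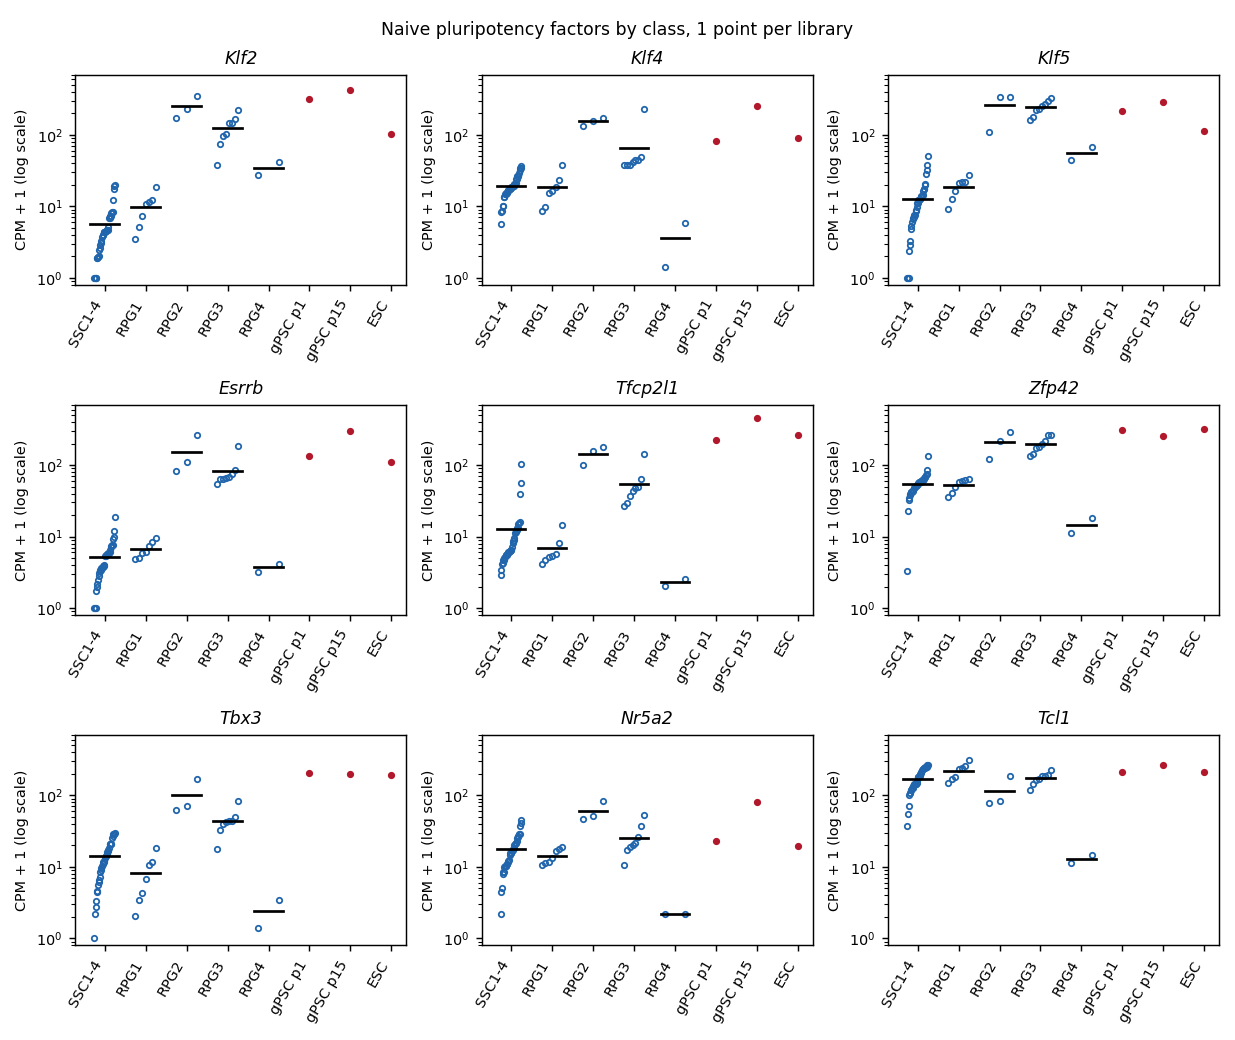
Level of each of the 9 genes in CPM (log scale) by class, 1 point for each library with at least 5 cells of the class, with the mean marked, and the single gPSC p1, gPSC p15 and ESC libraries. *Klf2*, *Klf4*, *Klf5* and *Esrrb* in RPG2 and RPG3 lie above all 36 SSC1-4 libraries, and in RPG4 every gene but *Klf2* lies below all 8 RPG3 libraries.

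Among the nuclear receptors, *Esrrb* rose from near absence and *Nr5a2* from a level that SSCs already held. *Esrrb* ran from 0 through 3.64 to 17.8 CPM in SSC1-4, with 3 libraries at 0, and had a mean of 5.74 ± 1.75 CPM (SD, n = 7) in RPG1. In RPG2 it read 263, 110 and 82.8 CPM, and in RPG3 53.0 through 65.9 to 181 CPM, where the day 12 library was the highest and the other 7 reached 85.3 CPM. All 11 libraries of these classes lay above all SSC1-4 libraries (5.30 ± 0.37, adjusted p = 6.5e-22 in RPG2 and 4.49 ± 0.30, adjusted p = 1.4e-23 in RPG3). RPG4, at 3.18 and 2.21 CPM, lay within the SSC1-4 range (-0.66 ± 0.80, adjusted p = 0.545) and below all RPG3 libraries (-5.15 ± 1.06, adjusted p = 0.000378).

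*Nr5a2*, which can act on the *Pou5f1* promoter, ran from 1.19 through 14.4 to 43.5 CPM in SSC1-4 and had a mean of 13.3 ± 3.46 CPM (SD, n = 7) in RPG1. RPG2 read 83.5, 50.2 and 45.0 CPM, all above SSC1-4 (2.00 ± 0.37, adjusted p = 6.7e-06). RPG3 ran from 9.55 through 20.0 to 52.2 CPM, and only the day 12 library lay above the SSC1-4 range. The call of *Nr5a2* in RPG3 (0.76 ± 0.28, adjusted p = 0.0166) was lost without that library (0.53, adjusted p = 0.112) and with sums of at least 10 cells (0.47, adjusted p = 0.107). In the 2 shared libraries, which do not include the day 12 library, the fold change was larger but not called (1.36, adjusted p = 0.263). In RPG4 *Nr5a2* read 1.19 and 1.21 CPM, below all RPG3 libraries (-4.54 ± 0.87, adjusted p = 0.000125) and lower than in SSC1-4 (-3.78 ± 0.82, adjusted p = 0.000167), where 1 library was as low.

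*Tfcp2l1* and *Tbx3* both rose in RPG2 and RPG3 and were lower again in RPG4. *Tfcp2l1* ran from 1.90 through 5.46 to 101 CPM in SSC1-4, the highest value being a sum of 8 cells on day 16, and from 3.1 to 13.5 CPM in RPG1. RPG2 read 177, 100 and 155 CPM, of which the second lay just under that SSC1-4 library (3.92 ± 0.47, adjusted p = 3.7e-11). RPG3 ran from 26 through 44.8 to 141 CPM, with the day 12 library highest and the other 7 at up to 62.6 CPM (2.54 ± 0.38, adjusted p = 1.3e-08), and overlapped SSC1-4 in 7 of 8 libraries. Without the day 12 library RPG3 still exceeded SSC1-4 (2.18, adjusted p = 1.8e-06). RPG4 read 1.59 and 1.01 CPM, below all libraries of RPG3 (-5.63 ± 1.33, adjusted p = 0.00234) and of SSC1-4 (-3.09 ± 1.17, adjusted p = 0.0373). Without replicate 1 both calls were lost (adjusted p = 0.0517 against RPG3 and 0.164 against SSC1-4), as they were without replicate 2 (adjusted p = 0.104 and 0.309).

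*Tbx3* ran from 0 through 11.6 to 28.5 CPM in SSC1-4 and had a mean of 7.13 ± 5.67 CPM (SD, n = 7) in RPG1. RPG2 read 69.9, 61.3 and 166 CPM, with no overlap (3.16 ± 0.42, adjusted p = 9.8e-10), and RPG3 16.6 through 41.9 to 82.1 CPM, of which 7 of 8 lay above all SSC1-4 libraries (1.95 ± 0.32, adjusted p = 2.7e-07). The lowest RPG3 value was that of day 18 replicate 3 and the highest that of day 12. RPG4 read 2.38 and 0.403 CPM, within the low end of SSC1-4 (-3.37 ± 1.02, adjusted p = 0.00766) and below all of RPG3 (-5.31 ± 1.13, adjusted p = 0.000598), and without replicate 2 both calls were lost (adjusted p = 0.0817 against RPG3 and 0.243 against SSC1-4).

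*Zfp42* and *Tcl1* were already expressed in SSC1-4, read over all days together. *Zfp42* ran from 2.31 through 52.9 to 135 CPM in SSC1-4 and had a mean of 52.2 ± 11.2 CPM (SD, n = 7) in RPG1. In RPG2 it read 214, 120 and 291 CPM, and in RPG3 131 through 188 to 265 CPM, where 7 of 8 libraries lay above all of SSC1-4. The rise was close to the same size in both (2.14 ± 0.26, adjusted p = 6.2e-11 and 2.08 ± 0.18, adjusted p = 1.9e-17). In RPG4 *Zfp42* read 10.3 and 16.9 CPM, below all RPG3 libraries (-4.06 ± 0.57, adjusted p = 1.2e-07) and lower than in SSC1-4 (-1.98 ± 0.48, adjusted p = 0.000808), which the 2 values overlapped. That last call was lost without replicate 1.

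*Tcl1* did not take part in the rise. It ran from 36 through 168 to 266 CPM in SSC1-4, from 148 to 312 CPM in RPG1, and from 116 through 177 to 224 CPM in RPG3 (0.24 ± 0.17 against SSC1-4, adjusted p = 0.210). In RPG2 it read 186, 76.7 and 81.1 CPM. RPG2 was lower than RPG1 (-0.83 ± 0.32, adjusted p = 0.0404), which the libraries of day 14 carried, and the call was lost without either of them. RPG2 against SSC1-4 gave -0.44 ± 0.28 (adjusted p = 0.199) and, in the libraries that held both classes, chosen after seeing the data, -0.82 (adjusted p = 0.0603). With the library as a block *Tcl1* was called lower in RPG2 than in SSC1-4 (-0.82), so this call depends on the model. RPG4 read 13.5 and 10.5 CPM, below every library of SSC1-4 (-3.85 ± 0.46, adjusted p = 7.4e-11) and of RPG3 (-4.09 ± 0.48, adjusted p = 3.3e-10), and of the 9 genes *Tcl1* was thus the only one that was called lower in RPG4 than in both while it had not been called higher in RPG2 or RPG3.

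With batch B1 or B2 as a covariate the 8 genes remained called in RPG2 and RPG3 against SSC1-4, and *Klf2*, for example, gave 5.03 (adjusted p = 1.4e-12) in RPG2. Within batch B1 the RPG3 and SSC1-4 means were 141 and 3.27 CPM for *Klf2* (5 and 29 libraries) and 68.3 and 4.05 CPM for *Esrrb*, and within batch B2 they were 95.2 and 10.1 CPM for *Klf2* (3 and 7 libraries) and 103 and 4.80 CPM for *Esrrb*. The mean *Klf2* level of SSC1-4 was thus higher in B2, and the 2 batches covered different days. Feeder markers were not higher where the 9 genes were. The 7 fibroblast markers summed to 3.56 to 136 CPM in SSC1-4, 3.11 to 10.3 CPM in RPG2, where *Col5a2*, *Dcn* and *Lum* were at 0, and 2.00 to 23 CPM in RPG3. In RPG4 the 7 endoderm and mesendoderm markers summed to 141 and 295 CPM against 6.99 to 19.3 CPM in RPG3, and all 7 were called higher than in RPG3. Their part in the fall of the 9 genes was not tested, and fewer cells that express a gene and less RNA per cell cannot be told apart, either in sums over cells or in shares of cells with a UMI, which fall with both.

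To read the genes per cell, each cell with at least 50000 UMIs was thinned to that number, and shallower cells were left out. This was done since clusters differed in depth (the median UMI count was 248474 in SSC1-4, 341308 in RPG2, 285699 in RPG3 and 345221 in RPG4). Of 2100 SSC1-4 cells, 10.1% held a *Klf2* UMI (95% exact binomial interval 8.88 to 11.5), against 29.2% of 312 RPG1 cells (24.2 to 34.5), 97.8% of 45 RPG2 cells (88.2 to 99.9), 82.3% of 254 RPG3 cells (77.0 to 86.8) and 36.4% of 33 RPG4 cells (20.4 to 54.9). Before thinning these shares were 21.4%, 65.5%, 97.9%, 92.7% and 75.8%. In the cluster Neural 3, set beside them after its levels were seen to be low and so no independent background, 0 of 58 cells held a *Klf2* UMI, which allows a share of up to 5.17%. The other 8 genes were found in 1.72% (*Tfcp2l1*) to 34.5% (*Tcl1*) of these cells, *Klf5* in 6.90%, and 56.9% held at least 1 of the 9. Intervals cover counting error within the cells only.

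The share of *Klf2* cells was thus higher in RPG1 than in SSC1-4, although its sums were not called different (0.92, adjusted p = 0.227), and the shares of single libraries ran from 15.4% to 45.5% in RPG1 and from 0% to 45.5% in SSC1-4 and overlapped. *Klf5* was found in 19.1% of SSC1-4, 88.9% of RPG2, 95.7% of RPG3 and 57.6% of RPG4 cells. *Nr5a2* was found in 33.2%, 64.4%, 32.7% and 3.03%, and *Tcl1* in 93.4%, 77.8%, 82.7% and 45.5% of the cells of these classes. Before thinning the shares were 31.2%, 93.6%, 97.7% and 72.7% for *Klf5*, 53.0%, 80.9%, 60.5% and 30.3% for *Nr5a2*, and 96.0%, 93.6%, 96.9% and 97.0% for *Tcl1*. Cells with most of the 9 genes were more frequent in RPG2 and RPG3: at least 7 of them were found in 34 of 45 RPG2 cells (75.6%) and in 120 of 254 RPG3 cells (47.2%), against 12 of 2100 SSC1-4 cells (0.571%), 4 of 312 RPG1 cells (1.28%) and 0 of 33 RPG4 cells, which allows a share of up to 9.09%. Whether the genes fell in the same cells more often than their single shares give was not tested. All 9 were found in 10 RPG2 and 22 RPG3 cells and in 0 of the cells of SSC1-4, RPG1 and RPG4. An RPG2 cell held a mean of 7.24 of the 9 genes and an RPG3 cell 6.10, against 3.24 for RPG1, 2.99 for SSC1-4 and 1.76 for RPG4.

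**Figure D3:**
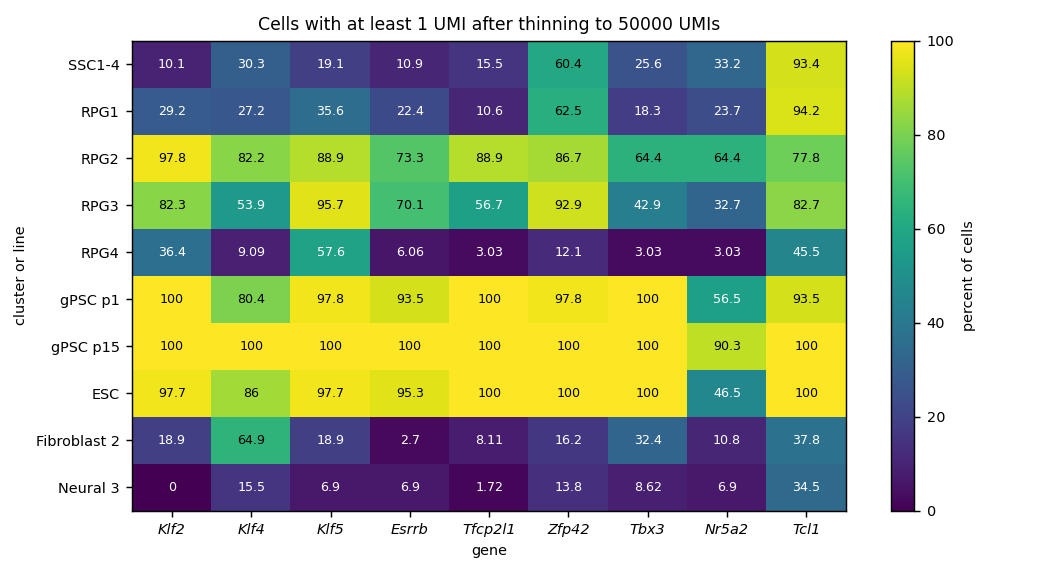
Percent of cells with at least 1 UMI of each gene after thinning to 50000 UMIs, by class and line. Cells with fewer UMIs are left out, and intervals are not drawn. *Klf2* goes from 10.1% in SSC1-4 to 97.8% in RPG2 and 36.4% in RPG4, and *Tcl1* starts at 93.4% in SSC1-4.

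The established lines, with 1 library each and no test, stood furthest above the RPG3 mean in *Tfcp2l1* and *Tbx3*. *Tfcp2l1* read 221 CPM in gPSC p1 (48 cells, exact Poisson interval 213 to 229), 456 CPM in gPSC p15 (32 cells, 444 to 469) and 264 CPM in ESCs (45 cells, 256 to 272), which is 4.08, 8.43 and 4.87 times the RPG3 mean and above every RPG2 and RPG3 library. *Tbx3* read 201, 201 and 189 CPM, or 4.67, 4.66 and 4.39 times the RPG3 mean. *Klf5* did not stand above RPG3 in this way, with 218, 284 and 112 CPM, or 0.902, 1.18 and 0.463 times its mean. In gPSC p15, *Klf4* (3.92), *Esrrb* (3.65) and *Klf2* (3.46) also read several times the RPG3 mean. The RPG3 mean of *Klf4* was raised by the day 12 library, which holds its ratio down, so the order of the genes depends on that library.

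In 7 of the 9 genes passage 15 exceeded passage 1 by more than counting error. At this depth counting error is small, and the share over all genes was not computed, so the count is no result about the 9. The ratio of passage 15 to passage 1 was 3.63 for *Nr5a2* (interval 3.18 to 4.15, 79.2 against 21.8 CPM), 3.06 for *Klf4* (2.86 to 3.28, 252 against 82.4 CPM), 2.2 for *Esrrb*, 2.07 for *Tfcp2l1*, 1.34 for *Klf2*, 1.31 for *Klf5* and 1.24 for *Tcl1*. *Tbx3* gave 0.998 (0.943 to 1.06) and *Zfp42* 0.801 (0.763 to 0.840), that is a lower level. Against the ESC library, gPSC p1 was 3.20 times higher in *Klf2* (322 against 101 CPM) and 1.95 times higher in *Klf5*. It was also higher in *Esrrb* (1.22), *Nr5a2* (1.19) and *Tbx3* (1.06). It was lower in *Tfcp2l1* (0.837, 0.799 to 0.878) and *Klf4* (0.918, 0.847 to 0.994), whereas gPSC p15 was higher than ESC in both (1.73 and 2.81). Between gPSC p1 and ESC, *Zfp42* (0.978, 0.939 to 1.02) and *Tcl1* (0.998, 0.949 to 1.05) differed by less than counting error. All 9 genes were found in 39.1% of gPSC p1, 90.3% of gPSC p15 and 34.9% of ESC cells after thinning, and at least 7 in 95.7%, 100% and 100%. With 1 library a line, passage, line and library cannot be told apart.

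Under 5C, the RPG3 cells had more *Klf4* and *Nr5a2* and less *Tcl1* than RPG3 cells under DMSO. In the scTrio-seq2 samples (3888311 to 10723044 UMIs each) 6 of the 5C samples and 2 of the DMSO samples held at least 5 RPG3 cells, and 13.1% of 14074 genes tested were called between them, 6.15% higher and 6.93% lower under 5C. *Klf4* ran from 124 through 193 to 258 CPM under 5C and read 47.9 CPM (replicate 1, 74 cells) and 36.7 CPM (replicate 2, 66 cells) under DMSO, with no overlap (1.79 ± 0.39, adjusted p = 0.000972). *Nr5a2* ran from 49.7 through 70.4 to 83.4 CPM against 10.9 and 8.80 CPM, also without overlap (2.37 ± 0.62, adjusted p = 0.00622). *Tcl1* ran from 64.1 through 110 to 128 CPM against 211 and 239 CPM, and every 5C sample lay below both DMSO samples (-1.60 ± 0.26, adjusted p = 1.5e-05). Germ cell markers moved with these changes: the 6 SSC markers summed to 403 to 738 CPM under 5C and to 271 and 274 CPM under DMSO, without overlap. Of them 3 were called higher, the RNA-binding protein gene *Dazl* (1.73), the RNA helicase gene *Ddx4* (1.28) and the transcription factor gene *Dmrt1* (1.27), and 1 of the 4 pluripotency markers, *Utf1*, was called lower (-1.13). The 7 fibroblast markers also did not overlap, at 5.09 to 35.8 CPM under 5C and 2.02 and 4.92 CPM under DMSO. *Col3a1* and *Lum* were at 0 in both. The 7 endoderm and mesendoderm markers summed to 6.13 through 8.47 to 445 CPM against 8.56 and 11.2 CPM, and 1 of the 6 tested, *Foxa2*, was called higher (4.76). The part of these markers in the result was not tested.

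With 1 of the 2 DMSO samples left out, the lone sample was assumed to vary like the other groups. Some calls were lost, while the fold changes stayed of similar size. *Klf4* gave 1.55 (adjusted p = 0.0871) without DMSO replicate 2, and *Nr5a2* gave 2.51 (adjusted p = 0.0771) without replicate 1 and 2.16 (adjusted p = 0.152) without replicate 2. *Klf2* (218 through 260 to 280 CPM against 115 and 79.5 CPM), *Esrrb* (150 through 183 to 236 CPM against 93.3 and 105 CPM) and *Tfcp2l1* (145 through 168 to 351 CPM against 85.8 and 89.8 CPM) did not overlap either, but were not called (adjusted p = 0.148, 0.410 and 0.260). How many of all genes lack overlap between the 5C and DMSO samples was not computed. The lack of overlap, here and for the genes called, is therefore a description and adds no support to the tests. *Klf2* was called when only the 2 groups, RPG3 under 5C and RPG3 under DMSO, were in the fit (0.94, adjusted p = 0.00549). *Klf5*, *Zfp42* and *Tbx3* overlapped between the treatments, with log2 fold changes of -0.36, -0.31 and 0.68 (adjusted p = 0.606, 0.439 and 0.477). The fit scales libraries by TMM, which moved the log2 fold changes of this comparison by -0.42 from plain CPM. On the CPM scale the means of *Klf5* (290 against 274 CPM) and *Zfp42* (222 against 207 CPM) were therefore slightly higher under 5C, and no direction is drawn for these 2 genes. In the comparisons of the original condition the same shift ran from -0.22 in RPG4 against RPG3 to 0.21 in RPG3 against SSC1-4. The 5C RPG3 cells came from days 12 to 16 and the DMSO ones from day 20, so treatment and day cannot be told apart.

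**Figure D4:**
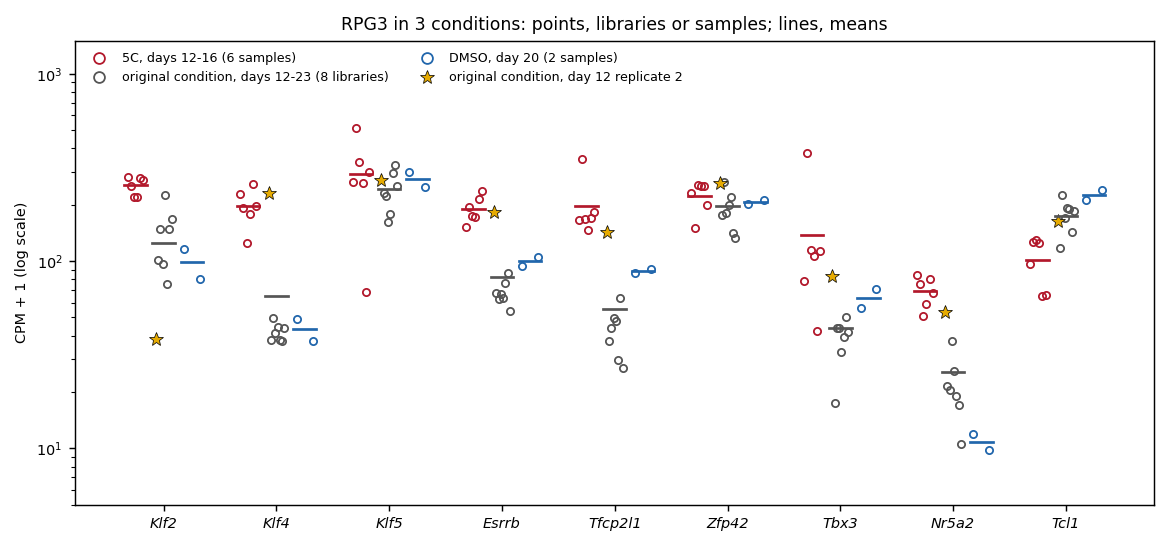
Level in CPM (log scale) of the 9 genes in RPG3 cells of each library in the original condition, each DMSO sample and each 5C sample, with the day 12 library of the original condition marked. *Klf4* and *Nr5a2* in the 6 samples under 5C lie above both DMSO samples, and the day 12 library, at 230 CPM for *Klf4*, lies among the samples under 5C.

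The day 12 library of the original condition, which had no chemicals, read 230 CPM for *Klf4*, 181 CPM for *Esrrb* and 52.2 CPM for *Nr5a2*, inside the range of the 5C samples and above the other 7 libraries of its class. Its *Klf2* (37.6 CPM) and *Tfcp2l1* (141 CPM) lay below the 5C ranges and its *Tcl1* (162 CPM) above that of *Tcl1*. The 2 experiments used different protocols and were normalized separately, so these levels are set side by side without a test. One 5C sample, replicate 3 with 7 RPG3 cells, had 375 CPM of *Tbx3*, 351 CPM of *Tfcp2l1* and 515 CPM of *Klf5*, each the highest of the 6, and its 7 endoderm and mesendoderm markers summed to 445 CPM.

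Within the 5C samples the step from SSC1-4 to RPG3 again raised 8 of the 9 genes (20.6% of all genes were called higher), with log2 fold changes of 5.15 for *Klf5*, 4.54 for *Klf2*, 4.46 for *Esrrb*, 4.4 for *Tfcp2l1*, 4.31 for *Tbx3*, 3.51 for *Klf4*, 1.91 for *Nr5a2* and 1.82 for *Zfp42*. *Tcl1* gave -0.41 (adjusted p = 0.0797). In the SSC1-4 cells themselves *Klf2* was called higher under 5C, at 2.61 to 20.9 CPM in 8 samples against 4.69, 1.02 and 4.53 CPM in 3 DMSO samples (1.73 ± 0.46, adjusted p = 0.00819), while 5.83% of all genes were called higher. That call was lost with only the 2 groups in the fit (adjusted p = 0.0626) and without DMSO replicate 4 (adjusted p = 0.0970), and the ranges overlapped. Here too the days differed, since the 5C samples came from days 12 to 16 and the DMSO samples from days 20 and 24, 1 of them with day 0 cells as well. Treatment and day cannot be told apart. Of 9 immediate-early genes, which respond to handling and growth factors, *Egr1*, *Ier2* and *Junb* were called higher and *Btg2* lower in the same comparison (median 1.10), with sums of 441 to 777 CPM under 5C and 392 to 471 CPM under DMSO. Their part was not tested. Per cell, at least 7 of the 9 genes were found in 105 of 120 5C RPG3 cells (87.5%) and in 62 of 109 DMSO RPG3 cells (56.9%) after thinning. All 9 were found in 38 and 7 of them. *Nr5a2* was found in 76.7% of the 5C and 20.2% of the DMSO RPG3 cells (75.2% and 22.9% before thinning), whose median depths were 97826 and 72906.5 UMIs and of which 25 and 31 cells were too shallow to be thinned.

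Few RPG2 and RPG4 cells were held by the scTrio-seq2 samples. RPG2 sums under 5C read 262, 269 and 334 CPM for *Klf2*. The 1 RPG2 sum under DMSO (5 cells) was unlike RPG2 elsewhere, with 95.1 CPM of *Klf2*, 7.92 CPM of *Klf4*, 3.96 CPM of *Nr5a2* and 325 CPM of *Tcl1*. The sum held 252459 UMIs, so that its *Klf4* rested on 2 UMIs and its *Nr5a2* on 1, too few to set them apart from the SSC1-4 level. It was closer to RPG2 of the original condition in *Klf5* (242 CPM), *Esrrb* (103 CPM) and *Zfp42* (151 CPM). The RPG4 sum under 5C (replicate 5, 5 cells) read 108 CPM for *Klf2*, 60.6 CPM for *Klf4*, 29.4 CPM for *Esrrb* and 101 CPM for *Zfp42*. It was unlike RPG4 elsewhere, since its SSC markers summed to 1001 CPM, against 244 to 268 CPM in the original condition and 218 to 264 CPM under DMSO. In RPG2 these markers summed to 465 to 1270 CPM under 5C and 360 to 498 CPM in the original condition. In DMSO RPG4 cells *Klf2* read 23.8 and 1.66 CPM and *Zfp42* 29.7 and 16.6 CPM. These sums hold 5 to 11 cells and were not tested.

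Off the route to pluripotency the counts of the 9 genes called were near the shares over all genes, so that they are no result about the 9. Against SSC1-4, 0 of 9 were called in the Fibroblast (5.63% of all genes called), Early-pluripotent (1.29%) and Meiotic (1.86%) classes. An unadjusted p under 0.05 was found for 1 of the 9 in each (*Klf4*, *Tcl1* and *Tcl1*) and for 3523, 3029 and 2972 of all 20030 genes. DESeq2 called 0, 0 and, for *Tcl1* in the Meiotic class, 1. In the Neural class, where 5.77% of all genes were called higher and 4.97% lower, *Klf5* was higher (22.8 ± 15.2 against 11.8 ± 10.6 CPM, SD, n = 12 and 36, a log2 fold change of 0.88 ± 0.29, adjusted p = 0.0362) and *Tcl1* lower (122 ± 32.2 against 171 ± 62.5 CPM, -0.50 ± 0.15, adjusted p = 0.0208), and in both genes the groups overlapped. The *Klf5* call was lost with at least 10 cells a sum (0.33, adjusted p = 0.597), and in the 10 libraries that held both classes, chosen after seeing the data, neither gene was called (adjusted p = 0.491 for *Klf5* and 0.0776 for *Tcl1*). By single cluster, *Klf4* was high outside the route in Fibroblast 2, with 51.6, 82.8 and 109 CPM in 3 libraries, above the 7 later RPG3 libraries. Fibroblasts are known to express *Klf4*. The cluster Early-pluripotency 2, with 1 library, had 46.6 CPM of *Klf4*, and after thinning 0 of 76 cells of this cluster held 7 or more of the genes, which allows a share of up to 3.95%. In Neural 3, with 2 libraries, *Zfp42* was at 1.97 ± 1.09 CPM and *Tcl1* at 11 ± 3.17 CPM, near the RPG4 level of *Tcl1*.

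Within the SSC clusters, *Tcl1* averaged 131 ± 69.4 CPM in SSC1 (SD, n = 28), 162 ± 50.2 CPM in SSC2 (n = 23), 202 ± 39.5 CPM in SSC3 (n = 18) and 259 ± 38.3 CPM in SSC4 (n = 16), and neighbouring clusters overlapped. *Tfcp2l1* was lower in SSC4 (1.74 ± 1.70 CPM) than in SSC1, SSC2 and SSC3 (7.45 to 8.15 CPM), within wide spreads. These are descriptions, since the clusters were formed on these cells.

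**Figure D5:**
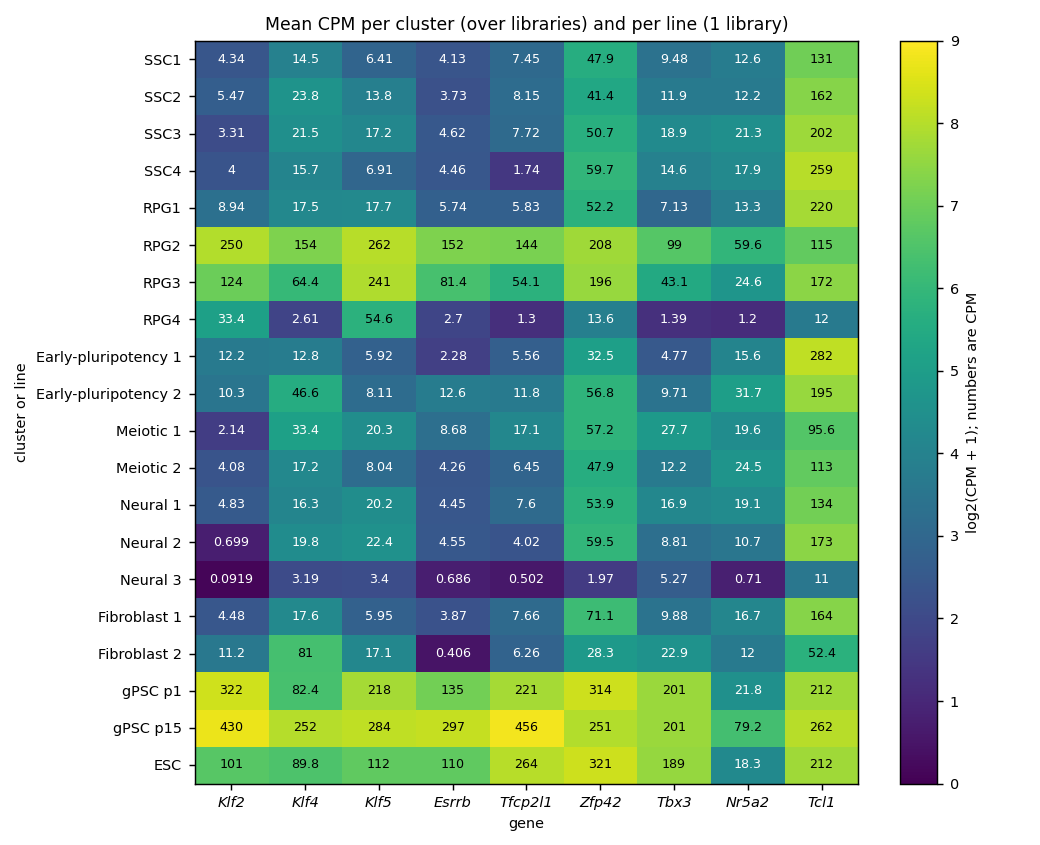
Mean level of each gene in CPM (log scale) in each of the 17 clusters that held a sum and in the 3 lines. *Tcl1* goes from 131 CPM in SSC1 to 259 CPM in SSC4, and Neural 3 and RPG4 share low levels of *Tcl1* (11 and 12 CPM).

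Among other genes of the pluripotency network, the core factors *Pou5f1*, *Sox2*, *Nanog* and *Sall4* were all called higher than SSC1-4 in RPG2, RPG3 and RPG4 (4 of 4 in each, where 17.5%, 25.2% and 12.6% of all genes were). In RPG4 against RPG3 0 of 4 were called, which the share of 8.93% over all genes would also give. An unadjusted p under 0.05 was found for 0 of 4 and for 4573 of all 20030 genes. *Nanog*, for example, averaged 2.29 CPM in SSC1-4, 283 CPM in RPG2, 182 CPM in RPG3 and 143 CPM in RPG4 (RPG4 against RPG3 -0.57 ± 1.03, adjusted p = 0.801), with a standard error that leaves room for a sizeable fall. *Sox2* and *Nanog* were called higher already in RPG1 (1.67 ± 0.37, adjusted p = 0.0016 and 2.60 ± 0.47, adjusted p = 7.98e-05), where 0 of the 9 were. Whether the core factors and the 9 genes differ in these steps was not tested.

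The other naive-associated genes, *Nr0b1*, *Prdm14*, *Fbxo15*, *Dppa3*, *Dppa5a*, *Gbx2* and *Zscan10*, were 7 of 7 higher in RPG2 and in RPG3 than in SSC1-4 (all genes 17.5% and 25.2%). In RPG4 against RPG3, 4 of 7 were lower (all genes 4.99%): *Nr0b1* (-6.47), *Dppa3* (-5.73), *Fbxo15* (-5.45) and *Dppa5a* (-4.02). Of 6 genes of the formative and primed epiblast, 4 were higher and *Sox3* lower in RPG3 than in SSC1-4 (all genes 25.2% higher and 31.5% lower), and 3 were higher in RPG3 than in RPG2 (all genes 2.85%). *Otx2*, which marks the exit from the naive state, averaged 2.36 CPM in RPG2, 203 CPM in RPG3 and 111 CPM in RPG4 (RPG3 against RPG2 6.71 ± 1.47, adjusted p = 0.00154), and was lower in RPG3 under 5C than under DMSO (40.3 against 226 CPM, -2.88 ± 0.59, adjusted p = 0.00044).

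Of 6 genes of the LIF and STAT3 pathway, the receptor *Lifr* was higher in RPG3 than in SSC1-4 (0.74 ± 0.17, adjusted p = 0.000114), and *Jak1*, *Stat3* and the target *Pim1* were lower. In RPG4, *Lifr* and *Pim1* were lower than in RPG3 (-1.51 and -2.69). Under 5C, *Stat3* (1.21 ± 0.28, adjusted p = 0.00182) and *Pim1* (1.19 ± 0.28, adjusted p = 0.00288) were higher in RPG3 than under DMSO, as *Klf4* was. Of the 14 other Klf genes, 6 were higher and 4 lower in RPG3 than in SSC1-4. Of 13 paralogues of the remaining genes, 9 were tested, of which *Yy1* was higher and *Esrrg*, *Tfcp2* and *Tcl1b4* lower in RPG3. In this comparison 25.2% of all genes were called higher and 31.5% lower. The counts of genes of these lists and of the LIF and STAT3 pathway are to be read against them.

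Over the 17 clusters, as a description, the mean levels of *Nr5a2* and *Zfp42* (Pearson's r = 0.884), *Esrrb* and *Tfcp2l1* (0.881) and *Klf4* and *Tbx3* (0.870) were the most alike pairs on the log2(CPM + 1) scale. *Tcl1* was unlike *Klf2* (0.068) and *Klf5* (-0.028) but more like *Nr5a2* (0.795) and *Zfp42* (0.731). Among 14700 genes with a mean of at least 5 CPM in a cluster, the most similar to each gene were *Cbs* to *Klf2* (0.929), *Wdr45* to *Klf4* (0.905), *Fabp3.ps1* to *Klf5* (0.942), *Apom* to *Esrrb* (0.969), *D630023F18Rik* to *Tfcp2l1* (0.919), *Itgb7* to *Zfp42* (0.966), *Klf4* itself to *Tbx3*, *Parp9* to *Nr5a2* (0.933) and *Mageb16* to *Tcl1* (0.946). *Lifr* came next after *Wdr45* for *Klf4* (0.898), and *Dppa4* next after *Itgb7* for *Zfp42* (0.944). Clusters of the same libraries share depth and batch, so these values carry no p.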

How the data were processed

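Single-cell RNA was measured in 49 libraries by modified STRT-seq and in 13 samples by scTrio-seq2, grouped by their labels. The methylomes were not analysed here. The deposited tables hold raw UMI counts, 1 row a gene and 1 column a cell, to which no normalization was applied. According to the methods and the submitters' processing notes, reads were aligned to mm10 with STAR 2.7.2b and assigned with featureCounts 2.0.0, molecules were counted with UMItools, and cells were clustered in Seurat. The classes of scTrio-seq2 cells are those the authors predicted with scPred. Counts and clusters were used as deposited.

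For each class, a library with 5 or more of its cells gave 1 sum of counts. The sums were fitted in edgeR 4.0.16 under R 4.3.3 (TMM, filterByExpr, quasi-likelihood F-test, no block or covariate) in 1 fit over the 9 classes of the original condition and 1 over treatment by class, with Benjamini-Hochberg adjustment and a threshold of 0.05. Replicates are libraries, never cells. DESeq2 1.42.0, its size factors, no filter on low counts, at least 10 cells, a stricter threshold, batch, library and replicate blocks, and left-out libraries were alternatives. Cells were thinned without replacement to 50000 or 25000 UMIs. Intervals at the 95% level are exact binomial or exact Poisson, and beside a 0 stands the share that 3 counts would make. Both cover counting error only. Depth was 10833720 to 14807169 UMIs for the 3 lines, 3888311 to 8059618 for the DMSO samples and 5880774 to 10723044 for the 5C samples. No 2 cells had identical counts. Fits were tested on simulated data for RPG3 and RPG4 against SSC1-4 and for 5C against DMSO in RPG3. The share of false calls was above the threshold in each, and small changes were often missed. In RPG4 against SSC1-4 and in 5C against DMSO larger changes were often missed too, so a gene not called there may still have changed. Other values were computed in Python 3.11 with pandas 2.3.3 and scipy 1.17.1, and limma 3.58.1 was loaded with edgeR.

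The 9 genes and all gene lists were chosen with earlier results of these data known. The text names the 9 genes, genes of the lists with their counts, and for each of the 9 the genes most alike over clusters. The sequences are RefSeq entries on GRCm38.p6, and gene coordinates come from release vM21 of GENCODE (GRCm38, called mm10 by UCSC).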

Additional observations from a re-analysis of the deposited data

Results flagged for a closer look

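In 63 sets of 4 to 10 libraries of 1 gene in 1 class, the highest or lowest library stood apart from the rest by Dixon's criterion in 10, where chance gives about 1 in 20. Of these, 3 were the RPG3 sum of day 12 replicate 2 in the original condition, with 7 cells: *Klf4* at 230 CPM (the others 36.4 to 48.5 CPM), *Esrrb* at 181 CPM (53.0 to 85.3 CPM) and *Tfcp2l1* at 141 CPM (26 to 62.6 CPM). The 5C replicate 3, also with 7 RPG3 cells, stood apart in *Tbx3* at 375 CPM (41.4 to 113 CPM) and *Tfcp2l1* at 351 CPM (145 to 182 CPM).

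In SSC1-4 under 5C, replicate 8 had 24.4 CPM of *Tfcp2l1* (the others 4.79 to 13.7 CPM), and in RPG1 day 18 replicate 5 had 13.5 CPM of the same gene (3.1 to 7.19 CPM). In the Fibroblast class, day 14 replicate 4 had 11.2 CPM of *Esrrb* (0.412 to 2.59 CPM), day 10 replicate 1 had 14.2 CPM of *Klf5* (3.87 to 5.68 CPM) and day 27 replicate 5 had 26.8 CPM of *Tbx3* (8.80 to 13.6 CPM). The causes were not tested.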

How the results depend on the processing

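The counts of genes called were recomputed under 221 alternatives over 14 comparisons, and 196 stayed within 1.5 times the value reported. Those that did not were the following. In RPG3 against RPG2 (0 called), sums of at least 10 cells gave 2 (*Klf4* and *Tcl1*) and only the 2 classes in the fit gave 1 (*Tfcp2l1*). Leaving out 1 RPG4 library gave 4 to 5 in RPG4 against SSC1-4 and 5 to 6 in RPG4 against RPG3 (8 reported in each). In the Fibroblast class (0 called), batch as a covariate gave 1 (*Klf4*) and leaving out 1 library 0 to 2 (*Klf4* and *Esrrb* without day 14 replicate 4). In the Meiotic class (0 called), no filter on low counts, at least 10 cells and the DESeq2 Wald test gave 1 each, always *Tcl1*. In the Neural class (2 called), the threshold of adjusted p below 0.01 with a natural-log fold change of at least 1 gave 0, at least 10 cells 1, only the 2 classes in the fit 1, sums per batch and day 1 (*Tfcp2l1*), the library as a block 1 (*Tcl1*, not *Klf5*), the same libraries without the block (chosen after seeing the data) 0, and leaving out 1 library 1 to 2. In 5C against DMSO in RPG3 (3 called), leaving out 1 sample gave 1 to 3, with 1 left without DMSO replicate 2. In 5C against DMSO in SSC1-4 (1 called), at least 10 cells gave 2, and only the 2 groups in the fit and the replicate block gave 0 each. The causes were not tested.

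Of the 1989 alternatives for the 126 log2 fold changes, 1911 kept their call, 53 lost it, 24 gained it and 1 reversed: *Tfcp2l1* in Neural against SSC1-4 was 2.90 (adjusted p = 0.00832) with sums per batch and day, against -0.39 as reported. A further 96 changed sign without being called in either fit. Samples were not taken as paired, since sums of 2 classes in the same library deviated together with correlations of 0.04 to 0.23, not all above 0.1, and same-numbered 5C and DMSO samples with -0.02 to 0.02. However, a sum was most like the other class of its own library in 4 of 4, 5 of 5 and 9 of 10 libraries of the Fibroblast, Meiotic and Neural comparisons. Within 5C it was most like the other class of its own sample in 4 of 6 samples, and between 5C and DMSO like the same number in 1 of 3. Sums of the same library may thus not be independent, as the fits without a block take them to be. With the library as a replicate block, RPG3 against SSC1-4 gave 6 called instead of 8 (without *Klf4*, 0.98, and *Nr5a2*, 1.55), as did the same 2 libraries without the block, and RPG2 against SSC1-4 gave 9 instead of 8, the ninth being *Tcl1* (-0.82). The block also gave 9 instead of 8 in RPG4 against RPG3, the ninth being *Klf2*, and called as many genes as reported in the other comparisons but Neural and 5C against DMSO in SSC1-4. The block could not be fitted for RPG4 against SSC1-4 and RPG2 against RPG1 (0 shared libraries), RPG3 against RPG2 (1) and 5C against DMSO in RPG3 (1 shared number). Thinning to 25000 UMIs moved 114 of 198 shares, and the 81 class levels stayed within 1 SD with at least 10 cells. Depth limits the low genes most, since in the smallest SSC1-4 sum (433094 UMIs) 1 UMI is worth more than 2 CPM, and 2 libraries in RPG4 and in DMSO RPG3 limit what those comparisons can show.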
